A study of Homo sapiens with 6 samples.

Results

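The windows described here carry an lncRNA promoter label in the deposited table, drew reads in small RNA libraries and lie away from the small RNA promoter windows of that table. The label is the table's, and 14 of them lie at an lncRNA start in GENCODE 29. They were taken from a table of 53603 promoter windows of 400 bp, each starting 150 bp before a transcription start and ending 250 bp after it, of which 27547 carry an lncRNA label. A window was kept when its raw count summed to at least 20 over the 6 libraries and when no window of another class than protein-coding, lncRNA or DARK (a class name of the table) lay within 1000 bp. One labelled window, a stretch of chromosome 1 and the mitochondrial chromosome were left out. This gave 178 windows, which form 168 separate regions once overlapping windows are merged. The summed count chose the windows, so their read depth is a description and no finding. At the threshold, 10 windows had a summed count of exactly 20, and 11 lncRNA windows with a summed count of 19 fell just outside. The summed count had a median of 40 and a maximum of 72120 among the 178, while 20649 of all lncRNA windows had no read.

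Both arms were HEK293T, an established human embryonic kidney cell line that carries the SV40 large T antigen. In 1 arm an siRNA targeted La, the product of SSB, and the other arm received a control siRNA, each at 150 nM for 48 h with Lipofectamine RNAiMax. There were 3 libraries per arm, described by the submitters as biological replicates. The mirVana PARIS kit gave the small RNA, whose ends were reset by Antarctic phosphatase and T4 polynucleotide kinase before NEBNext library preparation. Total counts were between 3066299 and 4105806 per library. The windows at the annotated starts of SSB held 4, 3 and 3 reads in the controls and 1, 0 and 0 in the knockdown at the first, and at most 2 reads in any library at the second. These depths are too low to check the knockdown, and SSB mRNA was not analysed here.

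La binds the run of uridines at the 3' end of new RNA polymerase III transcripts, such as precursor tRNAs, and shields them from exonucleases. Long noncoding RNAs are mostly made by RNA polymerase II, and many start divergently from protein-coding promoters. A catalogue of lncRNA starts also takes in processed pseudogenes, which are genomic copies of mRNAs, and pieces of genes whose own products are abundant short or structural RNAs.

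The sequences below show what lies in some of these windows. The first is the start of MALAT1, an abundant nuclear lncRNA that holds 6 of the windows, from chr11:65498795-65499094, plus strand (RefSeq, GRCh38.p14). Capitals mark a TATAAA motif, which begins 30 bases before the annotated start, and the 50 bases from the start on.
MALAT1 start: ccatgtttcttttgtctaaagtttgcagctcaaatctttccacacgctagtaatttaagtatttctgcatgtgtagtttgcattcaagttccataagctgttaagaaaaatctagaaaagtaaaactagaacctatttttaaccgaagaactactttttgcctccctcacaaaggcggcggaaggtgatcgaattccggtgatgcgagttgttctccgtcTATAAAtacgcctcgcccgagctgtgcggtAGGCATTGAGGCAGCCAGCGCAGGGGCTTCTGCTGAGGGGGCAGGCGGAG
The second is the start of LOC124901014, an lncRNA that points away from TENT2, a noncanonical poly(A) polymerase, from chr5:79612288-79612416, minus strand (RefSeq, GRCh38.p14). Its window is lncRNA_16220, and capitals mark the 50 bases from the annotated start on.
LOC124901014 start: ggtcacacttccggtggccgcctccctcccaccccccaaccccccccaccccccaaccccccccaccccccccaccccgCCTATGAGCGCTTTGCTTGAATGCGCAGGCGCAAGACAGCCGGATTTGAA
The third is a small nucleolar RNA gene, SNORD167, that lies inside window lncRNA_25678 although its class has no window nearby. It is printed with 20 bases on each side, chr1:1304709-1304832, plus strand of GRCh38 (GENCODE 29), with the gene in capitals. The strand of the gene itself was not looked up, so the letters may be the reverse complement of its RNA.
SNORD167: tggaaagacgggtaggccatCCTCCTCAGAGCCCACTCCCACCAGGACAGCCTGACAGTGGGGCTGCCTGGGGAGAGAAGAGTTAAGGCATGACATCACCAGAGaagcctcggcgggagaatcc
The next pairs set pseudogenes in 4 windows beside their parent genes, with the differing bases in capitals (GENCODE 29, GRCh38). They are shown because a short read from the parent can match the window. RPS27AP16 in lncRNA_24612 (chr16:61055789-61055938, minus strand) copies RPS27A, a ribosomal protein fused to ubiquitin.
RPS27AP16: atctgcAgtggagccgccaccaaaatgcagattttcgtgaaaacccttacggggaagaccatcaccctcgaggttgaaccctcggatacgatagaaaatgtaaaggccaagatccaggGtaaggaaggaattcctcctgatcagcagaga
RPS27A: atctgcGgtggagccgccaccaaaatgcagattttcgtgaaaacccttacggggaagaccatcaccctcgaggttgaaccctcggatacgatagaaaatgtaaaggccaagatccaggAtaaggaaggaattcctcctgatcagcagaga
EEF1A1P6 in lncRNA_3469 (chr7:22511850-22511999, minus strand) copies EEF1A1, the translation elongation factor that brings tRNA to the ribosome.
EEF1A1P6: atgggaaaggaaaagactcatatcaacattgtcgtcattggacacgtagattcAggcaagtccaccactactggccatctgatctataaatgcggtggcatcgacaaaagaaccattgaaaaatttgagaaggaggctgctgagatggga
EEF1A1: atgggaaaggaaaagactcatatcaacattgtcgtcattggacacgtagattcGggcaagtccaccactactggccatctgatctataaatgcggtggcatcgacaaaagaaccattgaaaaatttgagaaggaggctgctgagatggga
MTCO1P53 in lncRNA_873 (chrX:126472285-126472403, plus strand) is a nuclear copy of MT-CO1, the mitochondrial gene for a cytochrome c oxidase subunit.
MTCO1P53: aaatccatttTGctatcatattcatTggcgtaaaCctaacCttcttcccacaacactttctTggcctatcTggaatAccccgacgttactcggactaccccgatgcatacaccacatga
MT-CO1: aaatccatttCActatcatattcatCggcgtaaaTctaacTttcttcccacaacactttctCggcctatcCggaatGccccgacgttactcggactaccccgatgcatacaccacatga
RNU1-82P in lncRNA_19544 (chr7:141728026-141728148, plus strand) copies RNU1-1, which encodes the U1 snRNA of the spliceosome.
RNU1-82P: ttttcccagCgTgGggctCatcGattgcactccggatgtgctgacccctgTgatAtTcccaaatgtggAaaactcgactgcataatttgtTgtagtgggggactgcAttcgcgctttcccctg
RNU1-1: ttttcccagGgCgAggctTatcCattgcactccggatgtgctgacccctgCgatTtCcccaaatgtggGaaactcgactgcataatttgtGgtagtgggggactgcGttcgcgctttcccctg
The 4 stretches differed from their parents at 2 of 244, 3 of 336, 8 of 119 and 11 of 123 aligned bases for RPS27AP16, EEF1A1P6, MTCO1P53 and RNU1-82P, and of these up to the first 150 bases are printed. Reference letters were at hand for at least part of 147 windows, from annotated transcripts and promoter tables, and for all 400 bases of 48.

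Most of the windows did not sit at an annotated lncRNA start. With GENCODE 29, 14 of the 178 had an lncRNA transcript starting within 50 bp of their own start site, 14 a protein-coding transcript and 33 a pseudogene, while 119 had none of these. Exons of protein-coding genes lay in 77 windows without a pseudogene or small RNA gene, and 49 of those 77 were within 1000 bp of a protein-coding promoter window. Ribosomal protein pseudogenes, copies of the mRNAs for ribosome subunits, lay in 25 windows and other pseudogenes of nuclear mRNAs or genes in 18. Nuclear copies of mitochondrial genes lay in 6 and 18S rRNA pseudogenes in 5. A further 19 windows were intronic or in the body of an annotated gene without an exon, and 11 held no annotated gene. Exons of lncRNAs and no other annotated exon lay in 13 windows, of which 6 belonged to MALAT1. Small RNA genes overlapped 4 windows by at least 20 bp, namely TRA-AGC9-1, SNORD167, RNU1-82P and LOC124904122, although the rule kept windows away from the small RNA promoters of the deposited table.

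The reads were concentrated in the 18S rRNA pseudogene inside ANKRD30BL on chromosome 2. RefSeq lists it as LOC110467533, synonym RNA18SP, from chr2:132254347-132256195, and the 3 windows lncRNA_40265, lncRNA_40266 and lncRNA_40267 lie wholly within it. Together they held 80.0% of the 97245 reads in all 178 windows, and lncRNA_40266 alone (chr2:132255130-132255529) held 74.2%. Its level was 1925, 3370 and 3384 CPM (reads scaled to a common library size with TMM factors) in the controls and 3584, 5976 and 3153 CPM in the knockdown. The arms overlapped, because knockdown library 3 was below controls 2 and 3. The log2 fold change was 0.55 (SE 0.31, edgeR adjusted p = 0.266). Set against all reads of the study's rRNA windows, lncRNA_40266 amounted to 0.750% ± 0.196 in the controls and 0.857% ± 0.207 in the knockdown (SD, n = 3 each). The share of a library's reads in all 178 windows was 0.277%, 0.469% and 0.504% in the controls and 0.444%, 0.752% and 0.435% in the knockdown, and the arms overlapped. The mean difference, 0.127 percentage points, was 0.0229 without knockdown library 2 and 0.0571 without control library 1. Without the 3 windows of this pseudogene, a choice made after their counts were seen, the share was 0.0925% ± 0.0112 and 0.0976% ± 0.0118 (SD, n = 3 each). Reads in these 3 windows cannot be assigned to this copy, because the placing of reads with several matches is not given.

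**Figure D1:**
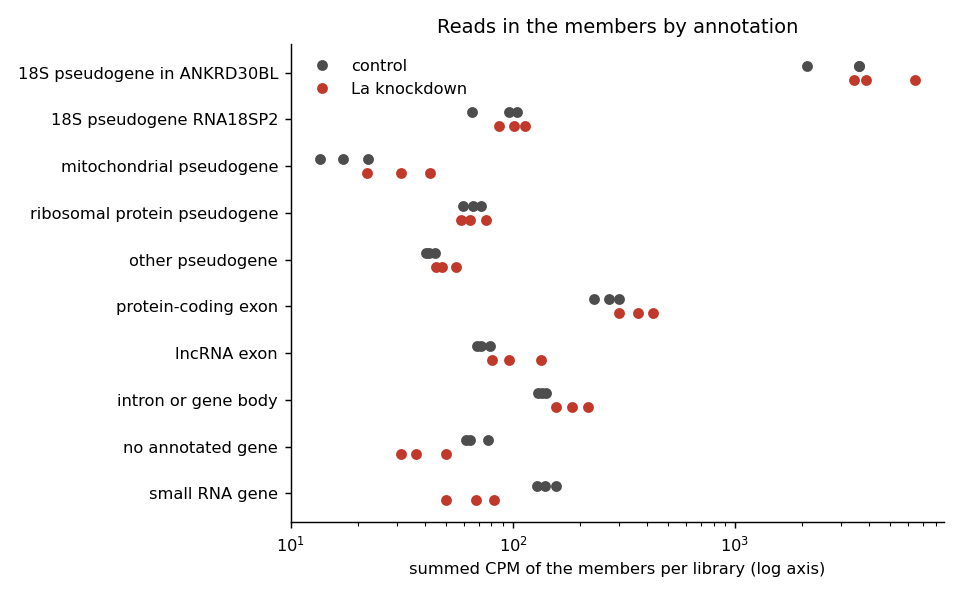
Summed CPM of the windows of each annotation group in each library (log axis), with controls in grey and La knockdown in red. The 18S pseudogene in ANKRD30BL runs from 2099 to 6441 CPM. The sums of the windows with small RNA genes and of those with no annotated gene are lower in every knockdown library than in every control, which rests on the 3 windows of these groups called lower.

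Without its 2 windows called lower, lncRNA_5051 and lncRNA_22003, the group with no annotated gene summed to 20.4, 15.1 and 13.0 CPM in the controls and 22.2, 23.0 and 24.6 CPM in the knockdown, so the order of the arms turned round. Without lncRNA_25260 the small RNA gene windows summed to 40.7, 44.9 and 49.8 CPM against 54.1, 33.6 and 45.4 CPM, which overlap. Both sums were chosen after the values were seen.

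The windows lncRNA_1629 and lncRNA_51176 lie in a second annotated 18S rRNA pseudogene, RNA18SP2 on the Y chromosome. How reads with several matches were placed is not given, so the reads in these windows cannot be assigned to this locus. The first had 95.3, 83.7 and 54.9 CPM in the controls and 63.8, 73.9 and 87.6 CPM in the knockdown, with a log2 change of -0.05 with SE 0.28 (edgeR adjusted p = 0.904). The second had 9.40, 12.4 and 10.4 CPM against 22.2, 38.9 and 13.2 CPM, a log2 change of 1.21 with SE 0.40 (edgeR adjusted p = 0.114). Its arms did not overlap while those of lncRNA_1629 did, so 2 windows of 1 pseudogene differed in their values. Neither passed the threshold, and the difference between them was not tested. The fold of lncRNA_51176 was called when knockdown library 3 was left out (adjusted p = 0.0344, edgeR) and with upper quartile scaling (adjusted p = 0.0495, edgeR), and the sign of lncRNA_1629 changed under some scalings.

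La knockdown was followed by a change past the threshold in 6 windows, 4 lower and 2 higher, out of 61 with enough reads for the edgeR test. Over all 1064 windows tested, 4.79% were called lower and 0.658% higher at an adjusted p under 0.05. The windows that fell were a GENCODE start of the lncRNA AC103706.1, the edge of the tRNA gene TRA-AGC9-1 and 2 sites with no annotated gene. Those that rose were a site in an intron of ZNF365 and a site with no annotated gene. With upper quartile factors in place of TMM the split was 3 lower and 8 higher, against 3.38% lower and 5.45% higher of all windows. With library size alone it was 4 lower and 1 higher, against 6.48% and 0.564% of all. The test used only windows that reached about 3.0 CPM in 3 libraries, and 4 of the 6 called windows reached it in 1 arm only. A lower floor, a summed count of 20, brought all 178 windows into the test and called 4 lower and 1 higher, against 2.84% lower and 0.237% higher among the 1690 windows then tested. The authors' deposited table lists 5 of the 178 at an adjusted p under 0.05, 4 lower and 1 higher, against 0.149% lower and 0.00373% higher among its 53603 windows. Those 53603 have a median summed count of 0, while the 178 were chosen for at least 20 reads, so the 2 sets are not alike in depth.

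**Figure D2:**
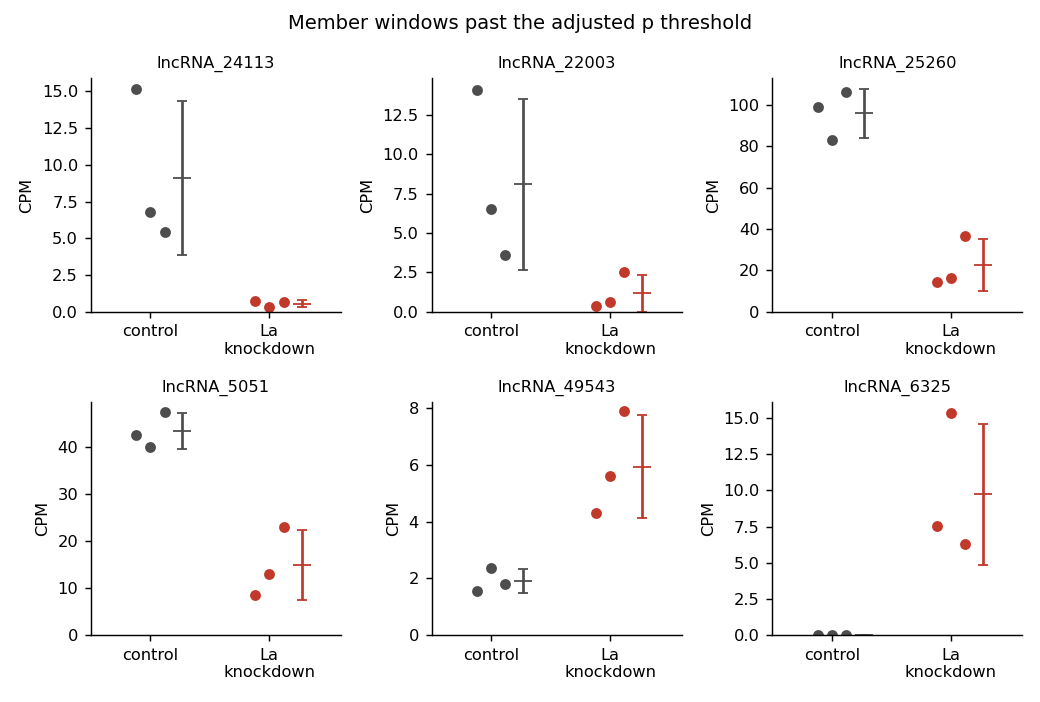
CPM of the 6 windows past the threshold in each library, with the mean and SD of each arm (n = 3) beside the points. In every panel the arms do not overlap, and lncRNA_6325 has no read in any control.

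The window with the strongest fall was lncRNA_24113 (chr8:133573033-133573432), which holds a start of the lncRNA AC103706.1 in GENCODE. In RefSeq it lies wholly inside the lncRNA ST3GAL1-DT, named for a divergent position beside ST3GAL1, a sialyltransferase gene. That RefSeq gene spans chr8:133570572-133573856, so neither of its ends lies in the window. Window lncRNA_24113 had 58, 23 and 21 reads in the controls and 2, 1 and 2 in the knockdown. These were 9.13 ± 5.25 and 0.547 ± 0.223 CPM (SD, n = 3 each). Control library 1 was the highest, and all knockdown libraries lay below all controls. The log2 fold change was -4.0 (SE 0.62, edgeR adjusted p = 0.0103). It passed the filter on low counts through the controls only, so its arms had to lie apart at the cut-off.

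The second, lncRNA_25260 (chr6:26730573-26730972), covers 34 of the 73 bases of TRA-AGC9-1, a gene annotated as an alanine tRNA with anticodon AGC, at chr6:26730534-26730606. Reads numbered 379, 281 and 410 in the controls and 40, 56 and 117 in the knockdown, or 96.1 ± 11.9 and 22.6 ± 12.4 CPM (SD, n = 3 each). Every knockdown library was below every control. This was a log2 change of -2.09 with SE 0.37 (edgeR adjusted p = 0.0148). The nearest tRNA window of the deposited table, 2270 bp away, had 50, 13 and 12 reads in the controls and 8, 17 and 15 in the knockdown (log2 fold change -0.66, edgeR adjusted p = 0.426).

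Window lncRNA_5051 (chr1:160925715-160926114) held no annotated gene in GENCODE 29 or RefSeq. It had 163, 135 and 183 reads in the controls against 24, 44 and 73, giving 43.3 ± 3.81 and 14.9 ± 7.38 CPM (SD, n = 3 each). The controls were close to each other and all above the knockdown. The log2 fold change was -1.54 (SE 0.36, edgeR adjusted p = 0.0369). The call was lost with upper quartile factors (edgeR adjusted p = 0.0520). It was also lost when any single library other than knockdown library 3 was left out, at adjusted p = 0.192 and 0.0898 without knockdown libraries 1 and 2, and 0.0640, 0.0747 and 0.0735 without controls 1, 2 and 3 (edgeR).

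Window lncRNA_22003 (chr19:50115680-50116079) also held no annotated gene and lay 1428 bp from a snAR window. Of the 4 that fell, it came closest to a small RNA promoter window of the deposited table, although lncRNA_25260 overlaps a tRNA gene. The snAR genes encode short RNA polymerase III transcripts. It had 54, 22 and 14 reads in the controls and 1, 2 and 8 in the knockdown, or 8.08 ± 5.41 and 1.16 ± 1.19 CPM (SD, n = 3 each), and the arms did not overlap. The log2 fold change was -2.75 (SE 0.70, edgeR adjusted p = 0.0472). That snAR window itself had 3515, 1820 and 1795 reads against 493, 203 and 577, a log2 change of -2.20 (edgeR adjusted p = 0.0165). In both windows control library 1 was the highest of the controls, and whether the reads share a source was not tested. The call on lncRNA_22003 was lost without knockdown library 1 or 2 (adjusted p = 0.265 and 0.166, edgeR) and without control 1 or 2 (adjusted p = 0.147 and 0.0698, edgeR). Like lncRNA_24113, it passed the filter through the controls only, so its arms had to lie apart at the cut-off.

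Of the windows that rose, lncRNA_6325 (chr10:62637463-62637862) lies in an intron of ZNF365, a zinc finger gene, and inside the lncRNA LOC105378327. It had no read in any control and 21, 52 and 20 reads in the knockdown. A count of 0 over the 3 controls allows up to 3 reads, or 0.271 CPM, so the pooled knockdown level of 9.94 CPM was at least 36.7-fold higher. The edgeR adjusted p was 0.0102. Across the table, 6705 windows had no read in the controls and at least 1 in the knockdown. Among these lncRNA_6325 had 93 reads and the next had 14. Because it passed the filter only through the knockdown arm, it had to differ once tested.

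The other was lncRNA_49543 (chr8:143431105-143431504), with no annotated gene. It had 6, 8 and 7 reads in the controls and 12, 19 and 25 in the knockdown, or 1.91 ± 0.409 and 5.93 ± 1.81 CPM (SD, n = 3 each), and the arms did not overlap. The log2 fold change was 1.62 (SE 0.41, edgeR adjusted p = 0.0447). It also passed the filter through the knockdown arm only, so its arms had to lie apart at the cut-off. The call was lost with each of the 6 libraries left out in turn (edgeR adjusted p from 0.104 to 0.178), with DESeq2 (adjusted p = 0.208), with the lower floor (edgeR adjusted p = 0.0714), with library size alone (edgeR adjusted p = 0.0582) and with no filter (edgeR adjusted p = 0.581). In the authors' deposited table it has a log2 fold change of 1.37 and an adjusted p of 1.

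Leaving out knockdown library 1 left no window of the 1121 then tested past the threshold, members or others, so that all 6 calls were lost. There, lncRNA_24113, lncRNA_25260 and lncRNA_6325 each had an edgeR adjusted p of 0.121.

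**Figure D3:**
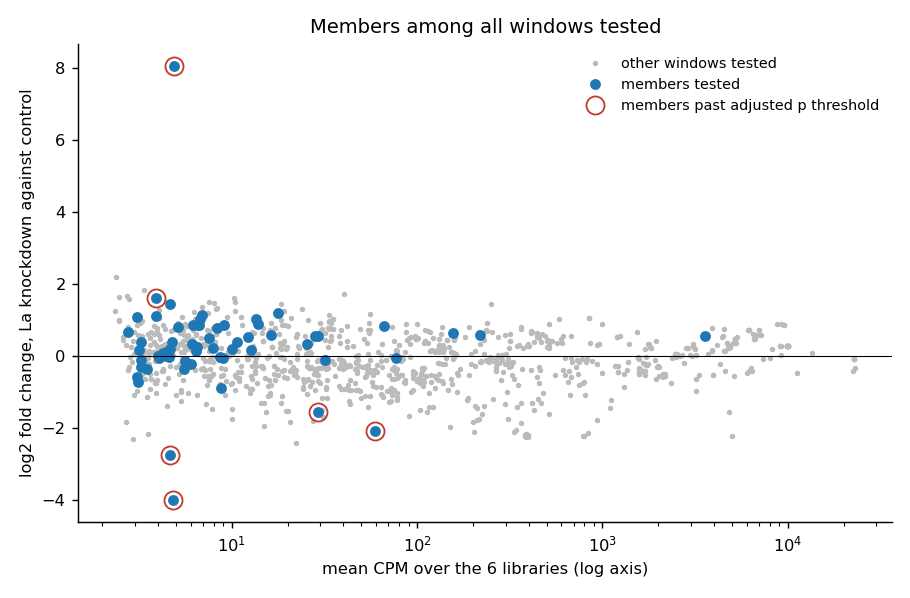
Log2 fold change against mean CPM over the 6 libraries (log axis) for the 1064 windows tested, with the 61 windows of this set in blue and the 6 past the threshold ringed. Most blue points lie between -1 and 1.5, and the ringed points lie at 1.62, -1.54, -2.09, -2.75 and -4.0, with lncRNA_6325 at a fitted 8.06 that depends on the prior count because its controls hold no read.

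Over the 61 tested windows the median log2 fold change was 0.34, beside -0.05 over all windows tested, and 40 of the 61 had a fitted value above 0 against 46.8% of all. Their quartiles were -0.05 and 0.81. The order of these medians turned round where all 178 windows were fitted among 21830, at 0.11 against 0.17 for all with DESeq2 and -0.0083 against 0.036 for all with edgeR and no filter. The knockdown libraries were all above the controls in 14 of the 61 and all below in 5, against 14.1% and 17.9% of all windows tested. By unadjusted p under 0.05, 13 were higher and 5 lower, against 9.68% and 14.2% of all. Protein-coding promoter windows picked by the same count floor and distance rule had a median of 0.31 over 116 tested, of which 2 were called, both higher (20 higher and 3 lower by unadjusted p in edgeR). With all 178 windows tested at the lower floor the median was 0.23, beside 0.10 over the 1690 windows.

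MALAT1 held more of the windows than any other annotated lncRNA, with 6 along its transcript. The window at its start, lncRNA_30184, had 3.65, 4.14 and 6.22 CPM in the controls and 8.60, 13.3 and 3.78 CPM in the knockdown, and the arms overlapped. With centres 50, 181, 388, 1231, 4368 and 4531 bp from the annotated start, the 6 windows had log2 fold changes of 0.87, 0.86, 1.04, 0.52, 0.40 and 0.60. All 6 fitted values were above 0 and none passed the threshold (edgeR adjusted p from 0.121 to 0.457). At an unadjusted p under 0.05 edgeR gave 2 of them, both higher. DESeq2 called none by adjusted p and gave 1, lncRNA_754, by unadjusted p (0.0428). The most read, lncRNA_731 (centre 4531 bp from the start, chr11:65503373-65503772), had 12.3, 14.5 and 12.2 CPM in the controls and 18.3, 24.5 and 16.1 CPM in the knockdown, which did not overlap. The largest difference was that of lncRNA_754 (chr11:65499230-65499629), at 6.0, 8.57 and 11.9 CPM against 16.1, 23.0 and 15.4 CPM. Its arms did not overlap either, and with upper quartile factors it was called (edgeR adjusted p = 0.0495). The windows of 1 transcript share reads where they overlap, so they are not independent. Knockdown library 2 was the highest library in all 6.

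**Figure D4:**
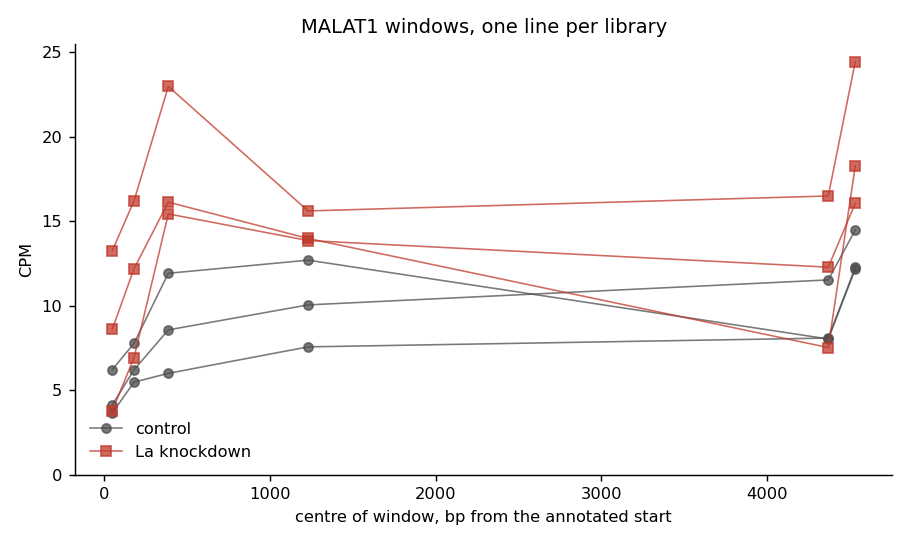
CPM of the 6 MALAT1 windows by the distance of their centre from the annotated start, with 1 line per library (controls grey circles, La knockdown red squares). The highest line is knockdown library 2 at every window, and the arms are apart at the windows centred 388, 1231 and 4531 bp downstream.

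NEAT1, the scaffold RNA of paraspeckles, had 1 window, lncRNA_30175 (chr11:65424181-65424580). It had 2.61, 2.07 and 3.63 CPM in the controls and 3.94, 2.65 and 4.41 CPM in the knockdown, with overlapping arms and a log2 change of 0.39 with SE 0.41 (edgeR adjusted p = 0.529). MALAT1 and NEAT1 were the members of a list of 14 abundant nuclear lncRNAs, and none of their 7 windows was called. XIST was not on that list, and a window at its start, lncRNA_21120, did not reach the filter. That window had 9, 9 and 14 reads in the controls and 4, 32 and 7 in the knockdown. No window matched a list of 33 snoRNA host genes or one of 15 miRNA host genes. The distance rule leaves out windows within 1000 bp of a snoRNA window, so it can itself remove windows of snoRNA hosts. CHASERR, an lncRNA beside CHD2, had a window (lncRNA_34127) with 7, 3 and 12 reads against 15, 16 and 8, a log2 change of 1.07 with SE 0.50 (edgeR adjusted p = 0.222), and the arms overlapped.

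No pseudogene copy of an mRNA gave a called window. Of 25 ribosomal protein pseudogene windows, 9 were tested, their log2 fold changes ran from -0.72 to 0.39 with a median of -0.05, and none passed the threshold or had an unadjusted p under 0.05 in edgeR, nor was any called by DESeq2. Their summed level was 65.9 ± 5.90 CPM in the controls and 65.9 ± 8.66 CPM in the knockdown (SD, n = 3 each). RPS27AP16 had 30, 23 and 19 reads against 18, 19 and 15 (log2 fold change -0.22, SE 0.34, edgeR adjusted p = 0.668). EEF1A1P6 had 55, 42 and 35 against 36, 50 and 41 (log2 fold change 0.18, SE 0.31, edgeR adjusted p = 0.701), and the arms of both overlapped. As a measure of how far such windows repeat other genes, the exact 20-base words of each were looked up in transcripts of other genes. A median of 72.0% of them recurred in the 23 ribosomal protein pseudogene windows with sequence, against 5.25% in the 77 windows with protein-coding exons and 0% in the windows with lncRNA exons. All such words in the windows of RPL29P4 and SRP9P1 recurred elsewhere, most often in RPL29 and SRP9. How reads with several matches were placed is not given in the sources used here, so reads in these windows cannot be assigned to the copy or the parent.

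Among the nuclear copies of mitochondrial genes, all 3 tested had fitted values above 0, with a median of 1.03 and a range from 0.34 to 1.14, and none passed the threshold in edgeR or DESeq2, with 2 at an unadjusted p under 0.05 in edgeR. MTCO1P53, shown above, had 15, 18 and 14 reads in the controls and 29, 44 and 16 in the knockdown, or 4.29 ± 0.906 and 9.47 ± 4.04 CPM (SD, n = 3 each). Knockdown library 3 overlapped the controls, and the log2 fold change was 1.14 (SE 0.41, edgeR adjusted p = 0.144). Without that library it was called (edgeR adjusted p = 0.0486). MTCO2P2, which lies within the SMAD2 gene, had 18, 15 and 16 reads against 27, 37 and 21, which did not overlap in CPM (log2 fold change 1.03, SE 0.34, edgeR adjusted p = 0.114). Reads in these windows cannot be assigned to copy or parent, because the placing of reads with several matches is not given.

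**Figure D5:**
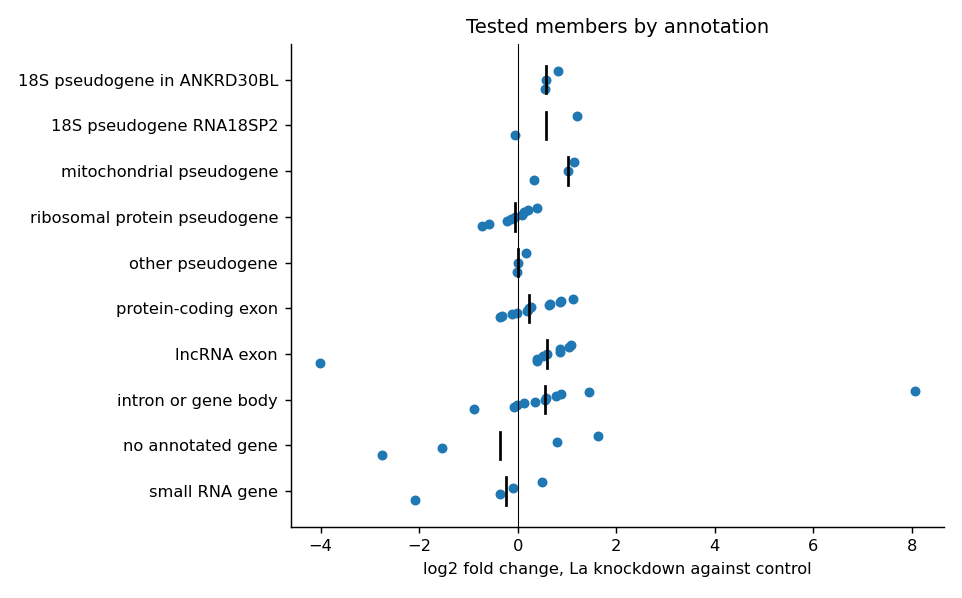
Log2 fold change of the 61 tested windows by annotation group, with a bar at each group's median. Ribosomal protein pseudogenes centre on -0.05 and lncRNA exons on 0.60, and the calls lie in the groups of lncRNA exons, introns, small RNA genes and no annotated gene.

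Of the 77 windows grouped under protein-coding exons, 13 were tested. Their median log2 fold change was 0.22, from -0.35 to 1.12, none passed the threshold in edgeR or DESeq2, and 3 were higher at an unadjusted p under 0.05 in edgeR. The most read was lncRNA_23729 (chr4:39977261-39977660) at the start of PDS5A, a regulator of the cohesin ring. It had 97.1, 124 and 144 CPM in the controls and 184, 227 and 160 CPM in the knockdown, so the arms did not overlap, with a log2 change of 0.64 with SE 0.26 (edgeR adjusted p = 0.161). It was called with upper quartile factors (edgeR adjusted p = 0.0495). Below the filter, 2 windows had unadjusted edgeR p-values under 0.01 once all 178 were tested. The share of all windows under 0.01 in that fit was not worked out, so this count cannot be set against chance. Window lncRNA_16220, which holds a start of TENT2 and that of LOC124901014 printed above, had 22, 10 and 8 reads in the controls and 2, 3 and 3 in the knockdown (log2 fold change -2.05, edgeR adjusted p = 0.0876). FER, a tyrosine kinase gene, had 1, 1 and 5 reads in window lncRNA_45290 against 8, 10 and 7 (log2 fold change 2.01, edgeR adjusted p = 0.129). Neither overlapped between arms and neither passed the threshold, and both were picked after their values were seen.

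Among windows in gene bodies without an exon, lncRNA_39594 (chr2:49229644-49230043) in the lncRNA gene AC009975.1 came closest to a call. It had 8, 11 and 8 reads against 16, 29 and 19, with no overlap, a log2 fold change of 1.45 (SE 0.38) and an edgeR adjusted p of 0.0567. It was called with upper quartile factors (edgeR adjusted p = 0.0323) and with the replicate block (edgeR adjusted p = 0.0282). In the other direction, lncRNA_14714 (chr3:114449911-114450310) in ZBTB20, a transcriptional repressor gene, had 39, 39 and 48 reads against 18, 18 and 21. Its arms did not overlap, with a log2 change of -0.89 with SE 0.31 (edgeR adjusted p = 0.129). In LINC00486, lncRNA_39458 (chr2:32916080-32916479) had 25.3, 23.1 and 22.0 CPM against 52.0, 26.8 and 26.1 CPM. Knockdown library 1 was far above the others, and the log2 fold change was 0.57 (SE 0.33, edgeR adjusted p = 0.279). In C10orf53, lncRNA_6253 (chr10:49703020-49703419) had 19.3, 22.5 and 25.1 CPM against 32.6, 29.8 and 23.0 CPM with overlapping arms (log2 fold change 0.35, SE 0.28, edgeR adjusted p = 0.407).

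The other windows with small RNA genes differed in value from the tRNA window. The window of SNORD167, which also holds an exon and a start of the protein-coding gene ACAP3, had 28.7, 34.3 and 35.0 CPM in the controls and 38.7, 17.7 and 35.6 CPM in the knockdown. Knockdown library 2 alone was below the controls (log2 fold change -0.09, SE 0.33, edgeR adjusted p = 0.856). RNU1-82P had 31, 14 and 25 reads against 10, 25 and 11 (log2 fold change -0.37, SE 0.42, edgeR adjusted p = 0.564). LOC124904122, annotated as an snRNA gene in TEX14, had 15, 22 and 32 reads against 33, 29 and 20 (log2 fold change 0.50, SE 0.39, edgeR adjusted p = 0.400). The arms overlapped in all 3.

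RefSeq start sites lay in 21 of the windows and gave 22 promoter sequences of 300 bases. Their median GC content was 62.5%, from 37.3% to 80.7%, beside 58.7% over all 35116 promoters of the table, and that of MALAT1 was 46.0%. Their median number of CpG dinucleotides was 27 beside 14. On either strand, TATAAA occurred in 2 of the 22 (9.09%, MALAT1 and H2AC18) beside 11.5% of all. The RNA polymerase III A box, searched as TGGC and GG with any 5 bases between, occurred in 7 (31.8%) beside 26.5% of all. The B box, searched as GTTCGANNC, occurred in 1, EME2 (4.55%), beside 0.829% of all. A run of TTTT, the form of an RNA polymerase III terminator, occurred in 17 (77.3%) beside 71.4% of all.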

How the data were processed

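Small RNA reads of 6 HEK293T libraries, 3 per arm, were counted in promoter windows. Raw read counts per window were deposited by the authors, per the file headers, without scaling. The authors' deposited comparison gives per window a log2 fold change and average log2 CPM, an F statistic used here as a score, and a p-value with its adjusted p-value, per the file headers. The submitters' processing notes name Trim Galore, Bowtie2, bedtools, edgeR and GRCh38, with no versions. Strand use and the placing of reads with several matches are not given in the sources used here. If strand was ignored, a gene and its antisense partner cannot be separated.

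The members and gene lists were chosen with earlier results of these data known. Arms were compared on the whole table with edgeR 4.0.16 (filterByExpr, TMM, quasi-likelihood test, two-sided, Benjamini-Hochberg over 1064 windows, threshold 0.05), checked on simulated data. The SE of a log2 fold change is its size over the square root of F. CPM are counts over the tested library size times its TMM factor, and totals ranged from 3066299 to 4105806 counts. Common dispersion gave a coefficient of variation between replicates of 28.5%. Named windows were those past the threshold, the 10 with the highest mean CPM, the 5 largest and 5 smallest fold changes with a mean count of at least 10, listed genes that were tested, and the threshold values. Overlapping windows counted as 1. CHASERR, XIST, MTCO2P2, RPS27AP16, EEF1A1P6, RPL29P4, SRP9P1, TENT2, FER, RNU1-82P and LOC124904122 were added after their values were seen. Annotation came from GENCODE 29 and RefSeq GRCh38.p14 by overlap of at least 20 bp, without strand. Limits for a count of 0 cover counting error only. Alternatives were other scaling factors, DESeq2 1.42.0, other filters, collapsed duplicates, a replicate block and each library left out.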

Additional observations from a re-analysis of the deposited data

How the results depend on the processing

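Lower windows numbered 3 or 4 under every scaling, filter and tool tried. The count of higher windows was 1 with DESeq2, library size alone, no filter or a summed count of at least 20, beside 5 of 21830, 6 of 1064, 4 of 21830 and 4 of 1690 windows in all. It was 8 with upper quartile factors, beside 58 of 1064. Leaving out 1 library gave 0 to 4 lower and 0 to 4 higher windows, beside 0 to 98 lower and 0 to 21 higher in all, with none of either without knockdown library 1. The median log2 fold change was 0.11 with DESeq2 and -0.0083 with no filter, both over all 178 windows and both under the median of all 21830 (0.17 and 0.036), and 0.64 with upper quartile factors, which moved the median of all windows tested to 0.26. The knockdown exceeded the controls by 0.127 percentage points in read share. The difference was 0.0229 (without knockdown library 2) to 0.182 (without knockdown library 3) with 1 library left out, 0.333 with library totals free of the 50 most read windows and 0.0051 without the ANKRD30BL windows. The summed level of the windows with no annotated gene differed by -28.2 CPM (knockdown minus control), and by 7.13 CPM without the 2 called lower. That of the small RNA gene windows differed by -74.3 CPM, and by -0.78 CPM without lncRNA_25260.

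Some fitted values near 0 changed sign. That of lncRNA_25678 was 0.22 with upper quartile factors and -0.31 to 0.17 with 1 library left out. That of lncRNA_1629 was 0.023 with RLE factors, 0.0094 without the 50 most read windows in the library size, 0.27 with upper quartile factors and -0.25 to 0.12 with 1 library left out. The cause was not tested.

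The labels do not say whether the shared replicate numbers pair the libraries, and the main fit left them unpaired. Same-numbered libraries had correlations of 0.14, 0.23 and -0.46 in their deviations from the arm means. With 3 libraries per arm these values cannot decide it. With the replicate block, 4 windows were lower and 3 higher, the third being lncRNA_39594 (edgeR adjusted p = 0.0282). Over all windows the block called 88 lower and 20 higher, against 51 and 7 without it. Depth limits these results, since 117 of the 178 windows did not reach the filter.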
